A study of Mus musculus with 4 samples.

Results

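The genes described here set how much pyruvate enters mitochondrial oxidation: pyruvate dehydrogenase kinases (Pdk1, Pdk2, Pdk3 and Pdk4), the phosphatases that oppose them (Pdp1 and Pdp2) and the α and β subunits of the E1 enzyme on which both act (Pdha1 and Pdhb). The members were chosen by symbol, with earlier results of these data known, so their values are a description. Of the 8 members, 7 were found among the 15500 genes of the expression table, and Pdk3 was not analysed here. The row for Pdk1 is Entrez gene 228026, the pyruvate dehydrogenase kinase, and not Pdpk1, which has shared the symbol.

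RNA labelled as liver of Kunming mice, an outbred stock, was profiled by RNA-seq in 4 libraries with 1 library per condition. All mice were fed for 28 days. The Vehicle group received chow with 1.5% (w/w) linoleic acid, and the CLA group received 1.5% (w/w) conjugated linoleic acid in its place. The GW6471 group ate the linoleic acid chow and was injected intraperitoneally each day with 20 mg/kg of GW6471, an antagonist of the fatty acid receptor PPARα, and the CLA+GW6471 group combined that injection with the CLA diet. Vehicle injections were given where appropriate according to the labels. The methods, which describe the diet groups without the antagonist, give males bought at 5 weeks of age, 1 week of acclimation and sampling at zeitgeber time 8. The groups held 6 mice each, and the sources do not say whether a library pools mice. Since a condition has a single library, the spread between replicates is unknown: the differences are those of these 4 libraries, and none was tested.

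The pyruvate dehydrogenase complex converts pyruvate to acetyl-CoA and thereby commits carbohydrate carbon to oxidation or lipid synthesis. The kinases phosphorylate the E1α subunit encoded by Pdha1 and switch the complex off, and the phosphatases remove that phosphate. Pdk4 is a classical fasting and PPAR target gene, Pdk2 is the kinase usually named as widespread in liver, and Pdk1 is known as a target of the hypoxia-inducible factor.

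Levels are in FPKM, which count fragments per kilobase, scaled to the mapped total, so that genes of unequal length can be set side by side. Where a gene has 4 values without names, they are in the order Vehicle, CLA, GW6471, CLA+GW6471. The estimated depth ran from 18770340 to 19261745 reads, and the FPKM summed to between 497015 and 522893. Folds are ratios of FPKM. The interval given with a fold is a 95% counting interval (exact Clopper-Pearson on reads estimated from FPKM, transcript length and depth), which covers counting error only. Log2 ratios are of FPKM + 0.1, on which changes of weakly expressed genes come out too small. A gene was called from 1.5-fold on that scale among the 10355 genes with a mean of at least 1 FPKM. Between CLA and Vehicle, 65.6% of the 9678 such genes with a known transcript length lay beyond the counting interval, so that interval alone separates little. Of the 16 hepatocyte markers, 12 were listed and 7 of these had a mean under 1 FPKM, among them Ttr, Fga, Ahsg and Cyp2e1, although Alb had 620.17 to 1321.55 FPKM. Pkm, the pyruvate kinase of most tissues other than liver, had a mean of 602 FPKM against 12.7 for Pklr, the form of liver. The values near 0 and those of Pkm and Pklr go against plain liver tissue, and the samples are called liver only because their labels say so. Ppara, the receptor that GW6471 blocks, stood at 0.06 to 0.15 FPKM in all 4 libraries. The 13 PPAR target genes with a mean of at least 1 FPKM had a median log2 ratio of 0.58 in GW6471 against Vehicle, against -0.0041 over all genes. Called targets of the blocked receptor were thus higher, not lower, in the library labelled GW6471, and the labels are used as given.

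The promoters of the 3 listed kinase genes are shown because the mRNA of Pdk4 followed another pattern across the libraries than those of Pdk1 and Pdk2. Each line gives bases 250 to 51 before the RefSeq start, 5′ to 3′ on the gene's strand, from the RefSeq promoter table and matched without a difference to mm9. Capitals mark the E-box CACGTG and the CCAAT box on either strand (ATTGG is its reverse complement), and Pdk1 held neither. The windows lie at chr6:5446329-5446528 (minus strand) for Pdk4, at chr2:71711031-71711230 (plus strand) for Pdk1 and at chr11:94902736-94902935 (minus strand) for Pdk2.
Pdk4: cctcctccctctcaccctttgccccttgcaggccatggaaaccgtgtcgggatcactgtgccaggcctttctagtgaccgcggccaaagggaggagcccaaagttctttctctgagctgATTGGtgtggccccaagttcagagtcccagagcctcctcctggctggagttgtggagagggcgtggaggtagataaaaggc
Pdk1: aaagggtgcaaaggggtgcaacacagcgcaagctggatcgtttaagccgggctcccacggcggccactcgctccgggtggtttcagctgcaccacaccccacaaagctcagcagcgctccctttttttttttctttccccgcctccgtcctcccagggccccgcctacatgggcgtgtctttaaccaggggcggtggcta
Pdk2: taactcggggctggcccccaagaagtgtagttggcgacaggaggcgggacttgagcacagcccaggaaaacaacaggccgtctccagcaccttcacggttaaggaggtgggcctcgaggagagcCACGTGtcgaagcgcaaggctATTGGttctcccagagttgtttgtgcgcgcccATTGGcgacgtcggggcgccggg

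Over the full 250 bases before a start, 7 of the 8 members were matched by symbol, with a total of 9 windows, and Pdp1 was not. Pdk4 carried 1 CCAAT box, 131 bases before its start. Pdk2 carried 3, at 105, 73 and 42 bases, and 1 CACGTG at 126 bases, all before the start used above (the box at 42 bases lies past the printed stretch), and its other window held neither motif. Outside the kinases with values, Pdhb carried 3 CCAAT boxes, Pdp2 carried 2 and 1 CACGTG, and Pdk3 carried 1 CCAAT box. The windows of Pdk1 and Pdha1 held neither motif. A CCAAT box was present in 33.8% of the 32851 mouse windows of this length and CACGTG in 6.02%. The nuclear receptor motif AGGTCA and the forkhead motif GTAAACA were found in none of the 9 windows, on either strand. They occurred in 14.0% and 3.17% of all windows. The direct repeat AGGTCANAGGTCA, the consensus form of a PPAR response element, was absent from all 9 windows and from the 20000 bp on each side of the starts of the 8 member genes in mm9. It lay within that distance of 8.48% of 22035 genes. These counts are of exact letters only. The direct repeat lay in 0.0335% of all windows, so its absence from the 9 windows tells little. The response elements of Nr1d1 that the paper tested do not hold this exact repeat either.

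Pdk4, at chr6:5433351-5446309 on the minus strand of mm9, had 1.17 FPKM under Vehicle, 1.87 with CLA, 17.99 with GW6471 and 15.56 with both. The libraries with the antagonist were both high and those without it both low. Compared to Vehicle, Pdk4 was 15.4-fold higher in GW6471 (12.1 to 19.5), a log2 ratio of 3.83. It was 13.3-fold higher in CLA+GW6471 (10.5 to 16.9), a log2 ratio of 3.62. By log2 ratio this placed Pdk4 at number 2 of the 10355 genes in each of these comparisons, and at number 1 in CLA+GW6471 against CLA, where it was 8.32-fold higher (6.91 to 10.2). The difference between the libraries with the antagonist was small, with CLA+GW6471 at 0.865 of GW6471 (0.795 to 0.94). In CLA against Vehicle, Pdk4 was 1.6-fold higher (1.18 to 2.13). That is a log2 ratio of 0.63, which fell to 0.40 with a pseudocount of 1 and was then no longer past 1.5-fold. The reads behind these values were estimated at 77 under Vehicle, 122 with CLA, 1197 with GW6471 and 1044 with both.

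**Figure D1:**
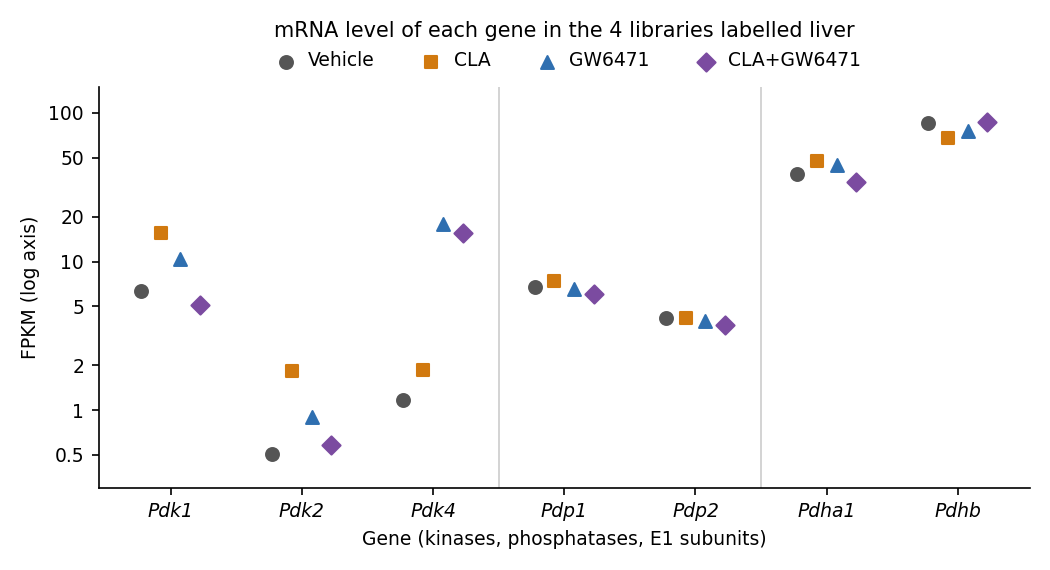
FPKM (log axis) of the 7 listed genes, with 1 point for each of the 4 libraries and no error bars, since each condition has 1 library. Pdk4 stands at 15.56 and 17.99 FPKM in the libraries with GW6471 and at 1.17 and 1.87 in those without, whereas Pdk1 and Pdk2 are highest in CLA and the phosphatases vary little.

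Pdk1 followed another order. This gene, at chr2:71711281-71741915 on the plus strand, had 6.31 FPKM under Vehicle, 15.59 with CLA, 10.41 with GW6471 and 5.12 with both. Each single treatment was above Vehicle and the combination was below it. Pdk1 was 2.47-fold higher in CLA than in Vehicle (2.25 to 2.72) and 1.65-fold higher in GW6471 (1.49 to 1.83). In CLA+GW6471 it was at 0.811 of Vehicle (0.72 to 0.914), which is within 1.5-fold. Against CLA alone, the combination was 3.04-fold lower (2.75 to 3.37). Against GW6471 alone it was 2.03-fold lower (1.83 to 2.27).

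Pdk2, at chr11:94887572-94902668 on the minus strand, was also highest in CLA and second in GW6471, at a far lower level. It had 0.51 FPKM under Vehicle, 1.83 with CLA, 0.9 with GW6471 and 0.58 with both, from an estimated 22 to 77 reads. With a mean of 0.955 FPKM it was just under the limit of 1 FPKM and is not among the counted genes. Pdk2 was 3.59-fold higher in CLA than in Vehicle (2.15 to 5.9) and 3.16-fold lower in CLA+GW6471 than in CLA (1.99 to 5.18). The 1.76-fold value of GW6471 against Vehicle had an interval from 1.01 to 3.09, and between CLA+GW6471 and Vehicle no difference was detectable at this depth (1.14-fold, 0.599 to 2.06). The same holds for CLA+GW6471 at 0.644 of GW6471 (0.369 to 1.08).

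The summed level of the hepatocyte markers was ordered across the libraries as Pdk1 was. Over the 12 listed genes it was 1010 under Vehicle, 1860 with CLA, 1520 with GW6471 and 931 with both. Alb had 679.53, 1321.55, 1067.32 and 620.17 FPKM in the same order. Of the 12 genes, 4 had this order (Alb, Apob, Fgb and Trf), and Alb made up most of the sum. Hnf4a, a transcription factor of hepatocytes, was among the 8 that did not, with 54.53, 47.31, 47.23 and 51.84 FPKM. The stellate cell and fibroblast markers had this order in their sum too, with 1290, 1510, 1350 and 1150 FPKM. That sum came nearly all from Dcn, and 5 of the 6 listed genes had a mean under 1 FPKM. The markers of bile duct and other epithelium did not, with 1940, 1820, 1650 and 1770 FPKM, nearly all from Krt8 and Krt18, which hepatocytes also make, while the bile duct marker Krt19 stood at 0.06 to 0.28 FPKM. Macrophage markers summed to 24.2, 36.6, 25.6 and 25.1 FPKM, and adipocyte markers to 5.23, 1.77, 2.32 and 4.85 FPKM. The part of cell makeup in the Pdk1 and Pdk2 values was not tested. In bulk RNA, fewer cells of a type and less RNA per cell cannot be told apart.

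Neither phosphatase passed 1.5-fold in any of the 5 comparisons. Pdp1, the calcium-stimulated isoform at chr4:11885331-11893599 (minus strand), had 6.76 FPKM under Vehicle, 7.39 with CLA, 6.58 with GW6471 and 6.04 with both. For Pdp2, the insulin-sensitive isoform at chr8:107115368-107120736 (plus strand), the values were 4.2, 4.14, 3.99 and 3.72 FPKM. Both were lowest in the combination. All 3 ratios of Pdp1 to Vehicle and all 5 ratios of Pdp2 lay within their counting intervals. For Pdp1, the interval of CLA+GW6471 against CLA did not include equality (0.817, 0.724 to 0.924). GENCODE gives the members 1 to 8 transcripts each, 6 for Pdp1, and all reads were estimated from the longest coding one.

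The E1 subunits were the most abundant members, and their differences were small and of opposite sign. Pdha1, at chrX:156560141-156576345 on the minus strand, had 38.78 FPKM under Vehicle, 47.12 with CLA, 44.37 with GW6471 and 34.28 with both. Pdhb, at chr14:8998505-9005506 on the minus strand, had 86.04, 68.28, 75.64 and 87.48 FPKM. The libraries in which Pdha1 was high were those in which Pdhb was low. The ratio of Pdhb to Pdha1 FPKM was 2.22 under Vehicle, 1.45 with CLA, 1.7 with GW6471 and 2.55 with both. Pdha1 was 1.22-fold higher in CLA than in Vehicle (1.15 to 1.29), and Pdhb stood at 0.794 of Vehicle (0.747 to 0.843). No ratio of either subunit reached 1.5-fold. Reads of Pdha1 could be shared with its retroposed copy Pdha2.

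**Figure D2:**
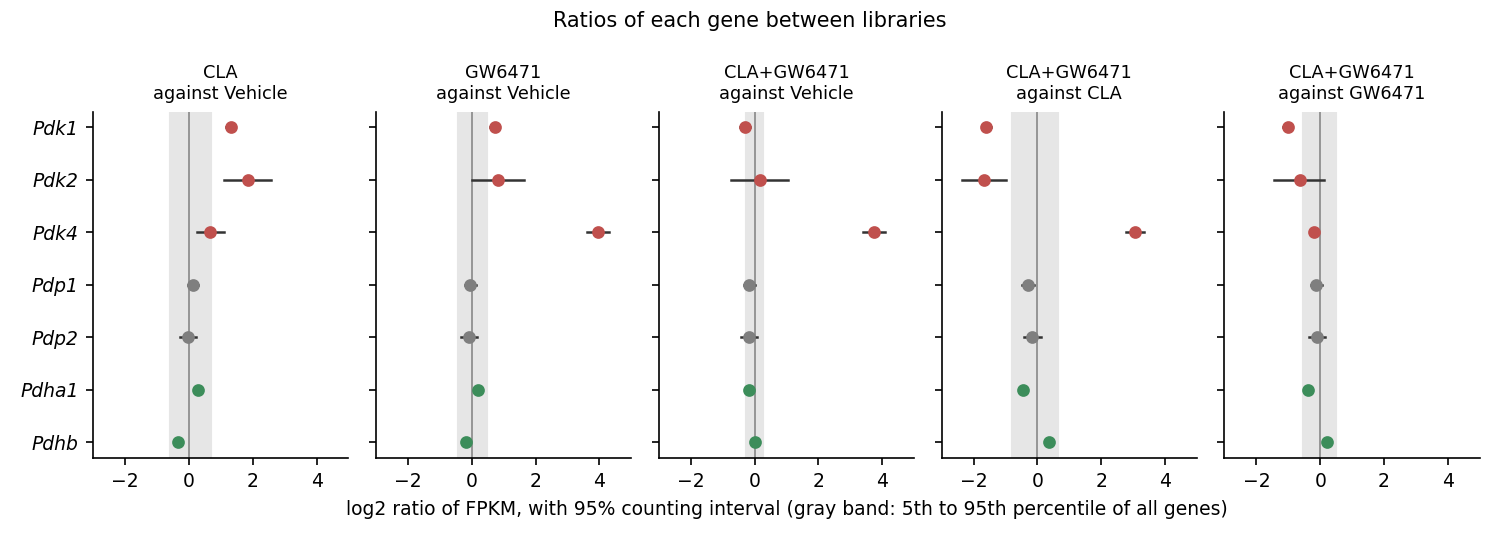
Log2 ratio of FPKM of each listed gene in the 5 comparisons, with bars for the 95% counting interval (counting error only). The gray band spans the 5th to 95th percentile of the log2 ratios of FPKM + 0.1 over 10355 genes, and Pdk4 lies far to its right in the 3 comparisons of a library with GW6471 against one without.

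Of the 6 members with a mean of at least 1 FPKM, Pdk1 and Pdk4 were at least 1.5-fold higher in CLA than in Vehicle, where 7.3% of all genes were, and none was lower (4.95% of all genes, 12.3% either way). The same 2 genes were higher in GW6471 than in Vehicle, with 3.28% of all genes higher, 2.1% lower (5.38% either way) and no member lower. In CLA+GW6471 against Vehicle, Pdk4 alone was called, among 0.512% of genes higher and 0.628% lower (1.14% either way). In CLA+GW6471 against CLA, Pdk4 was higher (6.84% of genes) and Pdk1 lower (9.15%), among 16.0% called either way. In CLA+GW6471 against GW6471, Pdk1 was lower (3.88%) and no member was higher (2.81%), among 6.69% called either way. These comparisons share libraries, and the members were chosen with the table known, so nothing further is read from the counts.

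The isoform makeup of the kinase mRNA differed between the libraries. Over the 3 listed kinases, Pdk1 made up 79.0% of the summed FPKM in Vehicle and 80.8% in CLA. In GW6471 it made up 35.5% and in CLA+GW6471 24.1%. The share of Pdk4 was 14.6% under Vehicle, 9.69% with CLA, 61.4% with GW6471 and 73.2% with both. Pdk2 contributed between 2.73% and 9.49%. Pdk1 was thus the leading kinase mRNA without the antagonist and Pdk4 with it.

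The summed FPKM of Pdk1, Pdk2 and Pdk4 was 7.99 under Vehicle, 19.3 with CLA, 29.3 with GW6471 and 21.3 with both. The phosphatase sum stayed between 9.76 and 11.5 FPKM. The ratio of these kinases to the phosphatases was therefore 0.729 under Vehicle, 1.67 with CLA, 2.77 with GW6471 and 2.18 with both. In Vehicle the 3 listed kinases summed to less than the phosphatases, and since Pdk3 was not analysed these sums and ratios are lower limits for all kinases. Without Pdk4 the ratio was 0.622, 1.51, 1.07 and 0.584 in the same order, and the combination then stood beside Vehicle. These are ratios of mRNA levels and not of enzyme activity.

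**Figure D3:**
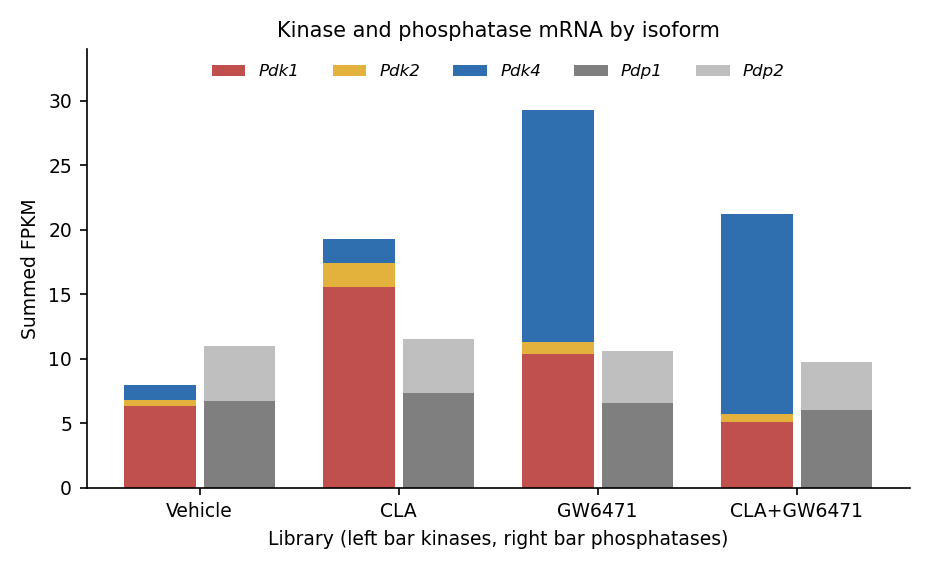
Stacked FPKM of the listed kinases (left bar) and phosphatases (right bar) in each library, on a linear axis from 0. The kinase bar grows from 7.99 FPKM in Vehicle to 29.3 in GW6471, with Pdk1 as its main part in Vehicle and CLA and Pdk4 in both libraries with GW6471.

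The other core subunits of the complex showed smaller differences. Dlat, the E2 acetyltransferase, had 19.99 FPKM under Vehicle, 25.39 with CLA, 23.62 with GW6471 and 18.7 with both. Pdhx, which anchors E3 to the core, had 8.42, 11.77, 9.23 and 7.43 FPKM. Dld, the E3 subunit shared with other dehydrogenase complexes, had 44.68, 37.79, 46.4 and 41.77 FPKM. Dlat and Pdhx were thus ordered as Pdha1 was, highest in CLA and lowest in the combination. Of these 3 genes, 1 passed 1.5-fold in any comparison, Pdhx, which was lower in CLA+GW6471 than in CLA (log2 ratio -0.66). Of all genes, 9.15% were lower there. Pdpr, a regulatory subunit of the phosphatase, lay just under 1 FPKM on average with 0.79, 0.97, 1.17 and 1.03 FPKM.

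The branched-chain ketoacid dehydrogenase has the same architecture, with a kinase and a phosphatase of its own. Bckdk, its kinase, had 25.71 FPKM under Vehicle, 30.64 with CLA, 23.81 with GW6471 and 23.05 with both. Its log2 ratio was -0.11 in GW6471 against Vehicle, where that of Pdk4 was 3.83. Ppm1k, its phosphatase, had 3.13, 4.61, 3.95 and 2.79 FPKM. Ppm1k was the only one of the 5 listed genes past 1.5-fold in any comparison, lower in CLA+GW6471 than in CLA (-0.70). In that comparison 9.15% of all genes were lower, and with a pseudocount of 1 Ppm1k was no longer called. The subunits Bckdha, Bckdhb and Dbt had log2 ratios from -0.55 to -0.19 in GW6471 against Vehicle. The 3 genes of lipoate attachment, which supply the cofactor of both complexes, Lias, Lipt1 and Lipt2, had log2 ratios from -0.29 to 0.35 against Vehicle. None was called in any comparison, where 1.14% to 16.0% of all genes were called either way.

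Genes that deliver or divert pyruvate did not show the pattern of Pdk4. None of the 8 with a mean of at least 1 FPKM passed 1.5-fold in any comparison with Vehicle. Of all genes, 12.3% (CLA), 5.38% (GW6471) and 1.14% (CLA+GW6471) passed either way, so the absence of calls is not particular to these 8. Their median log2 ratio in GW6471 against Vehicle was 0.11. Mpc1 and Mpc2, which form the mitochondrial pyruvate carrier, had log2 ratios of -0.50 and -0.41 there. Mpc2 had 22.03 FPKM under Vehicle, 19.28 with CLA, 16.61 with GW6471 and 26.18 with both and was called in CLA+GW6471 against GW6471 (0.65). Pkm, the pyruvate kinase outside liver and red cells, had 529.86, 760.6, 628.66 and 489.23 FPKM, highest in CLA and lowest in the combination, and was called lower in CLA+GW6471 than in CLA (-0.64). Gpt2, the mitochondrial alanine aminotransferase, had 39.78, 48.17, 49.81 and 33.24 FPKM.

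The list of PPAR target genes held 20 genes, of which 13 had a mean of at least 1 FPKM. In GW6471 against Vehicle 6 of the 13 were at least 1.5-fold higher and none lower, and in CLA+GW6471 against Vehicle again 6 and none, with medians of 0.58 and 0.48. Of all genes, 3.28% and 0.512% were higher in these comparisons. Over all genes the medians were -0.0041 and -0.0029. Cpt1a, which admits long-chain fatty acids to mitochondria, had 11.34 FPKM under Vehicle, 15.98 with CLA, 46.04 with GW6471 and 43.13 with both. Slc25a20, the carnitine carrier, had 4.12, 6.61, 9.83 and 8.34 FPKM. Angptl4, a secreted inhibitor of lipoprotein lipase, had 11.47, 10.15, 26.76 and 32.39 FPKM. Acot1, an acyl-CoA thioesterase with uncertain reads, since its paralog Acot2 is very similar, had 2.34, 4.01, 15.04 and 10.86 FPKM. These 4 were named for having the largest ratios in GW6471 against Vehicle and do not stand for the list. Ucp2, an uncoupling protein, had 168.77, 254.78, 203.11 and 164.16 FPKM, and Acadm, an acyl-CoA dehydrogenase, had 29.96, 38.26, 32.4 and 27.67 FPKM, both highest in CLA.

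The 5 genes whose pattern lay closest to that of Pdk4, by the mean absolute difference over the 3 log2 ratios to Vehicle, were Pet117 (0.82), Acot1 (0.92), Cpt1a (1.22), Hist2h3c2 (1.26) and Fam71f2 (1.53). None lay close, since Pdk4 had larger ratios than all 5 with the antagonist. Pet117, an assembly factor of cytochrome c oxidase, went from 0.26 FPKM in Vehicle to 1.28 in GW6471 and 2.96 in CLA+GW6471. Hist2h3c2 encodes a histone H3 with near-identical copies, so its reads are uncertain. This likeness rests on 4 libraries.

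**Figure D4:**
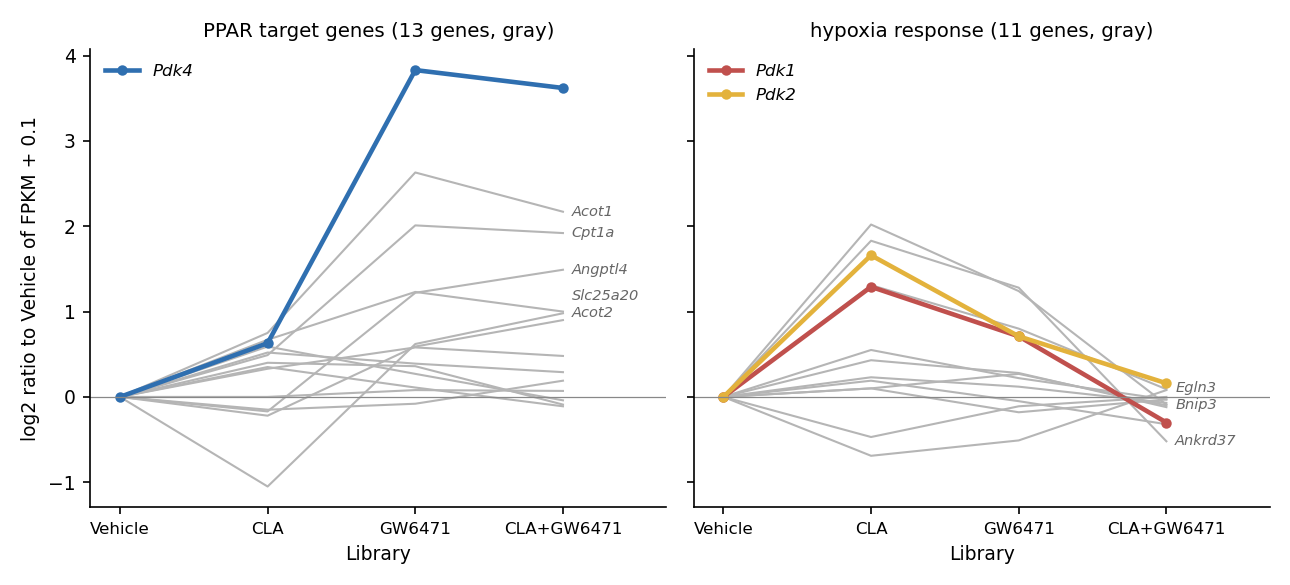
Log2 ratio to Vehicle (FPKM + 0.1) of Pdk4 with 13 PPAR target genes (left) and of Pdk1 and Pdk2 with 11 hypoxia response genes (right), where lines join the values of 1 gene and imply no order of the libraries. Pdk4 reaches 3.83 in GW6471 and 3.62 in CLA+GW6471, above all target genes drawn, and Pdk1 and Pdk2 peak in CLA at 1.29 and 1.66 together with Bnip3, Ankrd37 and Egln3.

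Part of the hypoxia response list was, as Pdk1 was, highest in CLA and second in GW6471. Bnip3, a mitophagy receptor, had 19.65 FPKM under Vehicle, 79.94 with CLA, 46.56 with GW6471 and 18.42 with both. Egln3, an oxygen-sensing prolyl hydroxylase, had 11.18, 27.96, 19.48 and 11.92 FPKM and, unlike Pdk1, was not below Vehicle in the combination. Ankrd37 had 1.25, 4.69, 3.17 and 0.84 FPKM. These 3 of 11 genes were at least 1.5-fold higher in CLA than in Vehicle (7.3% of all genes) and in GW6471 than in Vehicle (3.28%). The medians of the list were 0.23 and 0.22, against -0.0071 and -0.0041 over all genes. Pfkfb3, a driver of glycolysis on the same list, had 5.46, 3.34, 3.8 and 5.77 FPKM. It was called lower in CLA than in Vehicle (-0.69, with 4.95% of all genes lower) and not in GW6471 (-0.51).

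Of the 11 transcription factors known to act on Pdk genes with a mean of at least 1 FPKM, 1 was higher in GW6471 than in Vehicle (3.28% of all genes) and none was lower (2.1%), with a median log2 ratio of -0.09, against -0.0041 over all genes. That gene was Hif1a, the oxygen-regulated subunit of the hypoxia-inducible factor, at 53.09 FPKM under Vehicle, 76.82 with CLA, 81.83 with GW6471 and 51.33 with both. In CLA against Vehicle, Foxo1 and Esrrg were lower (4.95% of all genes) and none was higher (7.3%), with a median of -0.22 against -0.0071 over all genes. Foxo1, which activates Pdk4 in fasting, had 6.91, 4.2, 5.73 and 7.19 FPKM. Esrrg, an estrogen-related receptor, had 2.96, 1.64, 2.34 and 2.53 FPKM. Foxo3 had 10.5, 10.39, 12.64 and 10.82 FPKM and passed in no comparison.

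In the list of glucocorticoid and fasting response genes, 2 of 9 were higher in GW6471 than in Vehicle (3.28% of all genes), with a median of 0.14, against -0.0041 over all genes. Igfbp1, an insulin-repressed secreted protein, had 1029.75, 1901.41, 1695.21 and 953.39 FPKM, and Sesn1, a stress-induced regulator of growth signalling, had 1.69, 4.51, 2.66 and 1.49 FPKM. Both had the order of Pdk1. Dusp1, a phosphatase of MAP kinases, did not: it had 70.42, 39.57, 72.58 and 90.62 FPKM. In CLA against Vehicle, Dusp1 was called lower (-0.83, with 4.95% of all genes lower) and Igfbp1 and Sesn1 higher (7.3%). In CLA+GW6471 against CLA, Dusp1 and Per1, a clock gene, were called higher (6.84% of all genes) and Igfbp1 and Sesn1 lower (9.15%). Irs2, at 11.78, 12.19, 15.89 and 17.62 FPKM, was higher with the antagonist than without it but stayed under 1.5-fold in all 5 comparisons. Tsc22d3, a direct glucocorticoid target, had 10.77, 12.87, 12.81 and 8.87 FPKM.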

How the data were processed

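mRNA labelled as liver was measured in 4 libraries, and each was given its condition by its label. According to the methods and the submitters' processing notes, reads were mapped to mm9 with BWA and Bowtie and quantified with Cufflinks, in versions not given in the sources used here. A table deposited by the authors gives FPKM rounded to 2 decimals for each library, without read counts or comparisons. The unit was taken from a supplementary table of the paper that names it. All columns were used.

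FPKM were used as deposited. With 0.1 added, log2 ratios were computed with pandas 2.3.3, numpy 2.4.6 and scipy 1.17.1 under Python 3.11.15, and matplotlib 3.10.9 drew the figures. No test was run, since a condition has 1 library. Depth was estimated from the steps of FPKM times length (kb) between 0.02 and 0.5 in 499 genes under 1000 nt with 1 annotated transcript (127 to 136 values per library). Lengths and positions were those of GENCODE vM1 (mm9), using the longest coding transcript, so intervals are approximate. Promoter sequences came from RefSeq (GRCm38.p6). The steps were tested on simulated data.

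The members, the gene lists and the alternatives were chosen with earlier results of these data known, and the CCAAT motif and the scan of 20000 bp after first values were seen. Some genes are not reported here. The genes named are all members, all PDC and branched-chain genes, up to 4 genes per list with the largest log2 ratio in GW6471 against Vehicle, and 5 genes most like Pdk4. Ppara, Pklr, Ucp2, Acadm, Dusp1, Per1, the genes nearest to Pdk1 and Pdk2 and single markers were named after their values were seen. Alternatives were another pseudocount, scaling, filter or fold.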

Additional observations from a re-analysis of the deposited data

Results flagged for a closer look

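Several members differed between libraries in opposite directions depending on whether the other treatment was present. Each case is 1 library against 1, beyond its counting interval on both sides, and the difference itself was not tested. In the comparisons used, 55.0% to 68.7% of genes with a known transcript length lay beyond that interval. The share of all genes with such opposite signs was not computed, so the cases are not read as particular to the members. For Pdk1, the log2 ratio of CLA to Vehicle was 1.29 and that of CLA+GW6471 to GW6471 was -1.01, a difference of -2.3. The ratio of GW6471 to Vehicle was 0.71 and that of CLA+GW6471 to CLA was -1.59, which differ by the same -2.3, since both differences use the same 4 values. For Pdk2, GW6471 had 0.71 against Vehicle and CLA+GW6471 had -1.50 against CLA, a difference of -2.22. With a pseudocount of 1 these Pdk2 ratios were 0.33 and -0.84. For Pdk4, CLA had 0.63 against Vehicle and CLA+GW6471 had -0.21 against GW6471, a difference of -0.84.

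Pdha1 differed by -0.65 in this sense, from 0.28 in CLA against Vehicle to -0.37 in CLA+GW6471 against GW6471. Pdhb differed by 0.54 in the other direction, from -0.33 to 0.21. The pattern of Pdk1, at least 1.5-fold higher with CLA alone and at least 1.5-fold lower with CLA under GW6471, was shown by 309 of 10355 genes, 2.98%. The reverse was shown by 147 genes, 1.42%.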

How the results depend on the processing

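Of 779 values recomputed under the alternatives, 702 stayed within the limits set for them, 77 moved and none reversed. Only log2 ratios of members past 1.5-fold could count as reversed, and a pseudocount cannot change the sign of a ratio. That none reversed therefore says little. No paired analysis was possible because each condition has 1 library, so that the groups share only 1 replicate number. For the same reason there was no replicate to leave out. Depth limits Pdk2 most, with 22 to 77 estimated reads.

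With a pseudocount of 1, the log2 ratio of Pdk4 was 3.13 in GW6471 against Vehicle, 2.93 in the combination against Vehicle and 2.53 in the combination against CLA, that of Pdk1 was -1.44 in CLA+GW6471 against CLA and that of Pdk2 was 0.91 in CLA against Vehicle. Members higher in CLA than in Vehicle then numbered 1. Called genes on the lists numbered 2 for PPAR targets in CLA against Vehicle, 1 for the glucocorticoid list in GW6471 relative to Vehicle and in the combination relative to GW6471, 0 for the branched-chain complex and 1 for transcription factors in the combination relative to CLA. All genes called were 2.96% (GW6471 against Vehicle), 0.444% (CLA+GW6471 against Vehicle) and 4.12% (CLA+GW6471 against GW6471).

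At 2-fold, members higher numbered 1 in CLA against Vehicle and 1 in GW6471 against Vehicle. All genes called were 2.53% for CLA, 0.869% for GW6471 and 0.299% for the combination, each relative to Vehicle, and 3.93% and 1.16% for the combination relative to CLA and to GW6471. List counts fell to 1 for PPAR targets and the glucocorticoid list in CLA against Vehicle, to 2 for the glucocorticoid list in CLA+GW6471 against CLA and hypoxia genes in CLA+GW6471 against GW6471, and to 0 in all other lists and comparisons where the count moved.

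At a mean of at least 5 FPKM, all genes called were 3.26%, 0.427% and 4.37% for GW6471 and the combination relative to Vehicle and for the combination relative to GW6471. Medians were 0.69 for PPAR targets (CLA+GW6471 against Vehicle), 0.04 for the branched-chain complex (CLA against Vehicle), and -0.45 for pyruvate supply and 0.06 for transcription factors (CLA+GW6471 against CLA). List counts were 2 for hypoxia genes in CLA against Vehicle and both comparisons of the combination with a single treatment, 1 for the glucocorticoid list (GW6471 relative to Vehicle, the combination relative to GW6471) and transcription factors (CLA relative to Vehicle, the combination relative to CLA), and 0 for the branched-chain complex (CLA+GW6471 against CLA).

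Without a filter, all genes called were 10% (GW6471 against Vehicle), 6.45% (CLA+GW6471 against Vehicle) and 11.2% (CLA+GW6471 against GW6471), and 2 members were lower in CLA+GW6471 than in CLA, with Pdk2 added. Medians in that comparison were 0.15 for PPAR targets, -0.18 for PDC subunits, -0.13 for pyruvate supply and 0.06 for transcription factors, and those of hypoxia genes were 0.38 in CLA and 0.12 in GW6471 against Vehicle. List counts were 1 for pyruvate supply in CLA and CLA+GW6471 and 2 in GW6471 against Vehicle, 3 for transcription factors in GW6471 against Vehicle, and 2 for them and for PPAR targets in CLA+GW6471 against GW6471.

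With the FPKM scaled to the same sum, 2 genes of pyruvate supply were called in CLA+GW6471 against GW6471. Without Pdk4, the kinase to phosphatase ratio was 0.622, 1.51, 1.07 and 0.584 in Vehicle, CLA, GW6471 and CLA+GW6471, the share of Pdk1 was 92.5%, 89.5%, 92% and 89.8%, and that of Pdk2 was 7.96% in GW6471 and 10.2% in CLA+GW6471.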

Other observations

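The genes closest to Pdk1 and Pdk2 were looked up by the measure used for Pdk4, after the values of both had been seen. Among genes with a mean of at least 1 FPKM, those close to Pdk1 included Cx3cl1, a membrane-bound chemokine, at a mean absolute difference of 0.0419, Dhrs3, a retinal reductase, at 0.0571, Siae, a sialic acid esterase, at 0.0597, and Hdac11, a histone deacetylase, at 0.0696. Cx3cl1 had 10.11 FPKM under Vehicle, 25.6 with CLA, 16.05 with GW6471 and 8.41 with both. The gene closest to Pdk2 was Mvd, an enzyme of cholesterol synthesis, at 0.065, with 4.58, 13.5, 7.94 and 5.1 FPKM. It was followed by Nudt13, Fgf1, Atoh8 and Aldh1a7, at 0.0911 to 0.136. All of these genes were highest in CLA and second in GW6471, and they lay nearer to Pdk1 and Pdk2 than any gene lay to Pdk4. The likeness is a description over 4 libraries.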
